A study of Saccharina japonica with 2 samples.

Results

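Aureochromes are a class of blue light (BL) receptors of photosynthetic stramenopiles, members of the lineage that holds the brown algae. The 9 unigenes described here are those that the study annotated as aureochromes in *Saccharina japonica*. They were taken from its list of putative BL photoreceptors by annotation alone and looked up among the 70288 unigenes with at least 1 uniquely aligned read, where all 9 were found. A unigene is a contig left after the assembled sequences had been merged into a non-redundant set. Sporophytes rested 4 h in the dark and then spent 2 h in sterilized seawater, either under BL or in continued darkness. The BL group and the dark group each consist of 1 library of polyadenylated RNA from pooled individuals. No difference below can therefore be checked against replicate libraries. The study also ran real-time PCR in biological triplicates on selected unigenes and reported increased expression of BL receptor genes. Those PCR values were not used here. Both groups were rinsed and dark-cultured alike, and their strain and genotype are not given in the sources used here. The labels call the material vegetative tissue of mature thalli, whereas the methods of the study speak of juvenile sporophytes.

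An aureochrome joins a basic leucine zipper, which binds DNA, to a LOV domain, a type of domain that can bind a flavin and sense BL. Light sensor and transcription factor can thus sit in a single protein. Whether the product of each unigene described here binds a flavin or senses BL was not tested. The LOV domain is the same type of module that phototropins carry in front of a protein kinase and that ZTL, FKF1 and LKP2, clock proteins of land plants, carry in front of an F box and kelch repeats. The family was first described in the yellow-green alga *Vaucheria frigida*, in which AUREO1 takes part in BL-induced branching and AUREO2 in the development of sex organs. In the diatom *Phaeodactylum tricornutum* an aureochrome takes part in the light-dependent start of cell division. The separate roles of the numbered aureochromes in brown algae are left out here.

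The study named each unigene after its best match. Of the 9, 8 match aureochromes of the filamentous brown alga *Ectocarpus siliculosus*, and their numbers are used below as AUREO1 to AUREO5. Unigene49100 (715 bp) and Unigene66471 (356 bp) match AUREO1, and Unigene11320 (1760 bp) and Unigene54592 (226 bp) match AUREO2. Unigene19749 (546 bp) matches AUREO3, Unigene14139 (768 bp) matches AUREO4, and Unigene8257 (498 bp) and Unigene14632 (815 bp) match AUREO5. The ninth, Unigene53981 (223 bp), matches an AUREO2-like protein of the rockweed *Fucus distichus*. Unigenes with the same match may be pieces of 1 transcript or transcripts of different genes, which was not tested because their sequences were not used here. Of the 9 unigenes, 5 are at least 500 bp long and 4 are shorter, and none contains unknown bases. The median GC content of the 9 was 59.27% (lowest 52.91%, highest 68.47%), and that of all unigenes was 52.28%.

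The BL library held 11410538 uniquely aligned reads and the dark library 10905306. Reads fell on 69362 unigenes in BL, where the median was 29 reads, and on 61927 in darkness, where it was 22. Unigenes annotated with brown algal functions in the part of the annotation at hand had reads in both libraries, namely all 6 for mannuronan C-5-epimerase, which shapes the alginate of the cell wall, all 3 for bromoperoxidase and both for light harvesting complex proteins. These do not mark vegetative tissue as such. In RNA from whole pieces of thallus, fewer cells of a type and less RNA per cell cannot be told apart.

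The 9 aureochrome unigenes together held 3001 reads in the BL library and 625 in the dark library. Corrected for library size, their reads were 4.59-fold higher in BL (exact 95% interval 4.21 to 5.01). This and all following intervals come from the counts alone and cover counting error only. All 9 had BL reads, 7 had dark reads, and each had a higher level in BL when the libraries were scaled by their total reads, although Unigene14632 was lower in BL under both other scalings tried. One unigene, the AUREO2 match Unigene11320, carried most of the reads, 81.8% of the aureochrome reads in BL (interval 80.3% to 83.1%) and 62.9% in darkness (interval 59.0% to 66.7%). Without it, the other 8 held 547 BL reads and 232 dark reads and were 2.25-fold higher in BL (interval 1.93 to 2.64).

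Levels of different unigenes were compared as RPKM, a scale that corrects the reads for the length of the unigene and the size of the library. Unigene11320 was the most abundant aureochrome unigene in both libraries, with 122 RPKM in BL (interval 117 to 127) and 20.5 RPKM in darkness (interval 18.5 to 22.6). This level was above that of 97.1% of all unigenes in BL and of 81.7% in darkness. In BL it stood well clear of the AUREO5 match Unigene14632, which followed at 18.2 RPKM (interval 15.5 to 21.1), whereas in darkness both lay close together, with Unigene14632 at 17.2 RPKM (interval 14.6 to 20.2). The exact conditional binomial test on their reads, adjusted over 15 pairs of neighbours, separated them in BL (adjusted p = 1.4e-218) and did not in darkness (adjusted p = 0.218).

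Behind these, the BL levels of the other 7 unigenes formed a narrow series. The AUREO4 match Unigene14139 had 13.7 RPKM, the AUREO3 match Unigene19749 11.2, the AUREO1 matches Unigene66471 and Unigene49100 10.1 and 9.44, and the AUREO5 match Unigene8257 8.45. The shortest unigenes came last, Unigene54592 at 5.04 RPKM and Unigene53981 at 3.54. None of these neighbours, nor Unigene14632 and Unigene14139, differed beyond counting error, with adjusted p values from 0.0924 to 0.770 in the exact conditional binomial test. Below the leading pair, the dark levels were spread more widely. Unigene14139 had 4.18 RPKM, far below Unigene14632 (adjusted p = 1.3e-16, exact conditional binomial test), followed by Unigene8257 with 3.50, Unigene19749 with 2.86, Unigene66471 with 1.03 and Unigene49100 with 0.513. No dark read fell on Unigene54592 or Unigene53981, for which 3 reads would be 1.22 and 1.23 RPKM. Neighbours in this part of the order did not differ beyond counting error either.

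**Figure D1:**
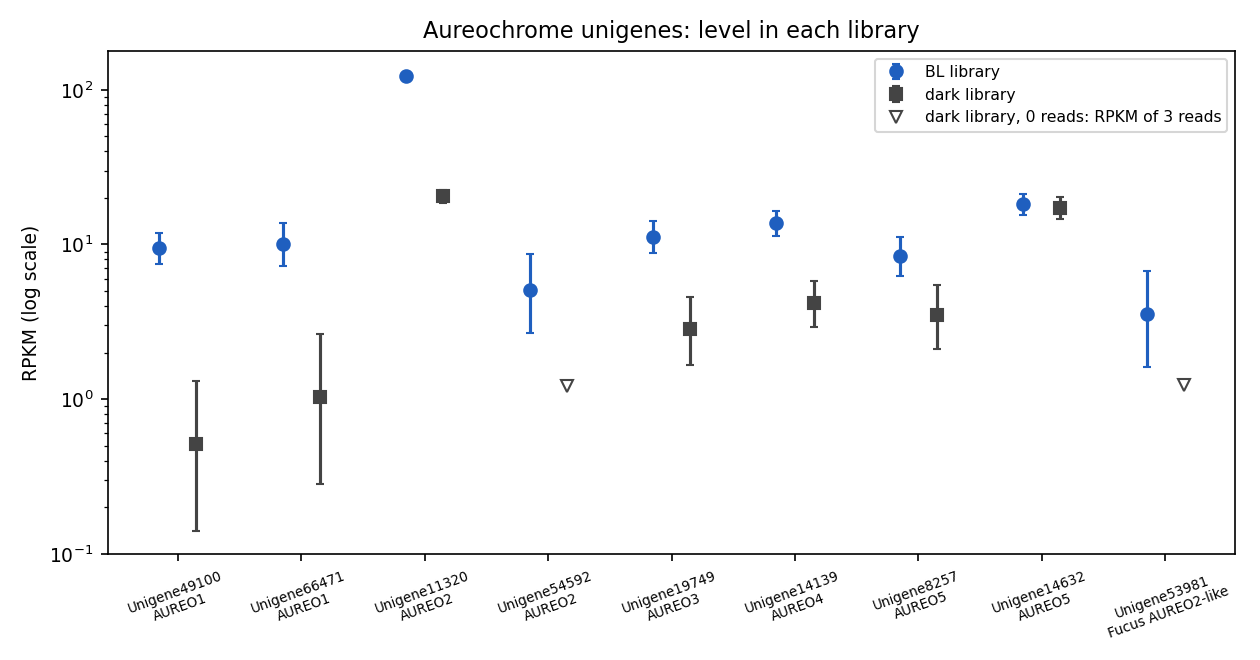
Level of each aureochrome unigene in the BL library (circles) and the dark library (squares) in RPKM on a log scale, with exact Poisson 95% intervals of the read counts; open triangles give the RPKM of 3 reads where the dark library had 0. Unigene11320 is far above the others in BL at 122 RPKM, and Unigene14632 is the only one with dark reads whose intervals overlap between the libraries.

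Whether the BL reads of a unigene departed from what its dark reads predict was tested after Audic and Claverie, by the probability of 1 count conditional on the other. FDR values were adjusted over all 70288 unigenes, and a unigene was called upregulated or downregulated if its FDR did not exceed 0.001, its unadjusted P did not exceed 0.05 and its RPKM differed at least 2-fold. With a single library each, treatment and library cannot be told apart. Of the 9 aureochrome unigenes, 6 were upregulated and none was downregulated, while 25.0% of all unigenes were upregulated and 11.6% downregulated. The median log2 ratio of BL over dark, with unigenes at 0 set to the limit that 3 reads allow, was 1.98 for the 9 aureochrome unigenes and 0.67 for all unigenes. Since the study picked the unigenes from this transcriptome, these counts are a description of the family and not evidence for it as a group.

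The AUREO1 matches had the highest ratios with reads in both libraries. Unigene49100 had 77 BL reads and 4 dark reads, an 18.4-fold difference (interval 6.90 to 69.2, FDR = 5.3e-17). Unigene66471 had 41 BL reads and 4 dark reads, a 9.80-fold difference (interval 3.55 to 37.7, FDR = 8.3e-08). Both were upregulated, and the few dark reads made their intervals wide. In coverage, BL reads reached 96.22% of the length of Unigene49100 and dark reads 41.12%, and BL reads reached 98.88% of Unigene66471 and dark reads 58.99%. Summed over both unigenes, the AUREO1 matches had 118 BL reads and 8 dark reads, a 14.1-fold difference (interval 6.93 to 33.4).

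Among the AUREO2 matches, Unigene11320 had 2454 BL reads and 393 dark reads, a 5.97-fold difference with the narrowest interval of the family, 5.36 to 6.66. It was upregulated, and reads covered 99.66% of its length in BL and 97.33% in darkness. The short Unigene54592 had 13 BL reads, which covered 97.35% of it, and no dark read, so that it was at least 4.14-fold higher in BL when 3 dark reads are allowed and the BL count is taken as fixed. The exact interval, which takes in the error of the BL count as well, reached down to 2.91-fold (FDR = 0.000742). It was just past the FDR threshold, and TMM factors, median-of-ratios size factors and Benjamini-Yekutieli adjustment each moved it to the other side. Unigene53981, the match of the *Fucus* AUREO2-like protein, had 9 BL reads and no dark read and was at least 2.87-fold higher in BL by the same 3-read limit, with an exact interval reaching down to 1.89-fold. With an FDR of 0.0087 it was not past the threshold.

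The AUREO3 match Unigene19749 was upregulated, with 70 BL reads and 17 dark reads, a 3.94-fold difference (interval 2.29 to 7.13, FDR = 1.1e-07). The AUREO4 match Unigene14139 was upregulated as well, with 120 BL reads and 35 dark reads, a 3.28-fold difference (interval 2.23 to 4.92, FDR = 1.4e-10). Both were covered over most of their length in either library, Unigene19749 to 96.52% in BL and 93.59% in darkness, and Unigene14139 to 99.48% in BL and 96.48% in darkness. Among the unigenes with dark reads, only the AUREO1 matches had a dark coverage below that of Unigene8257, described next.

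Neither of the AUREO5 matches passed the thresholds. Unigene8257 had 48 BL reads and 19 dark reads, a 2.41-fold difference (interval 1.39 to 4.35) with an FDR of 0.00213, and reads covered 91.57% of it in BL and 81.12% in darkness. Unigene14632 had 169 BL reads and 153 dark reads, a 1.06-fold difference (interval 0.843 to 1.32, FDR = 0.716). The sign of its log2 ratio depended on the scaling of the libraries, and none of the scalings below took it past the thresholds. Its log2 ratio was 0.08 with total reads and -0.21 with TMM factors, which shift every log2 ratio by -0.29. Median-of-ratios size factors shift it by -0.42, to -0.34. It was the one member that dark reads covered further than BL reads, 96.56% in BL and 99.02% in darkness. Summed, the AUREO5 matches had 217 BL reads and 172 dark reads, a 1.21-fold difference (interval 0.983 to 1.48).

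**Figure D2:**
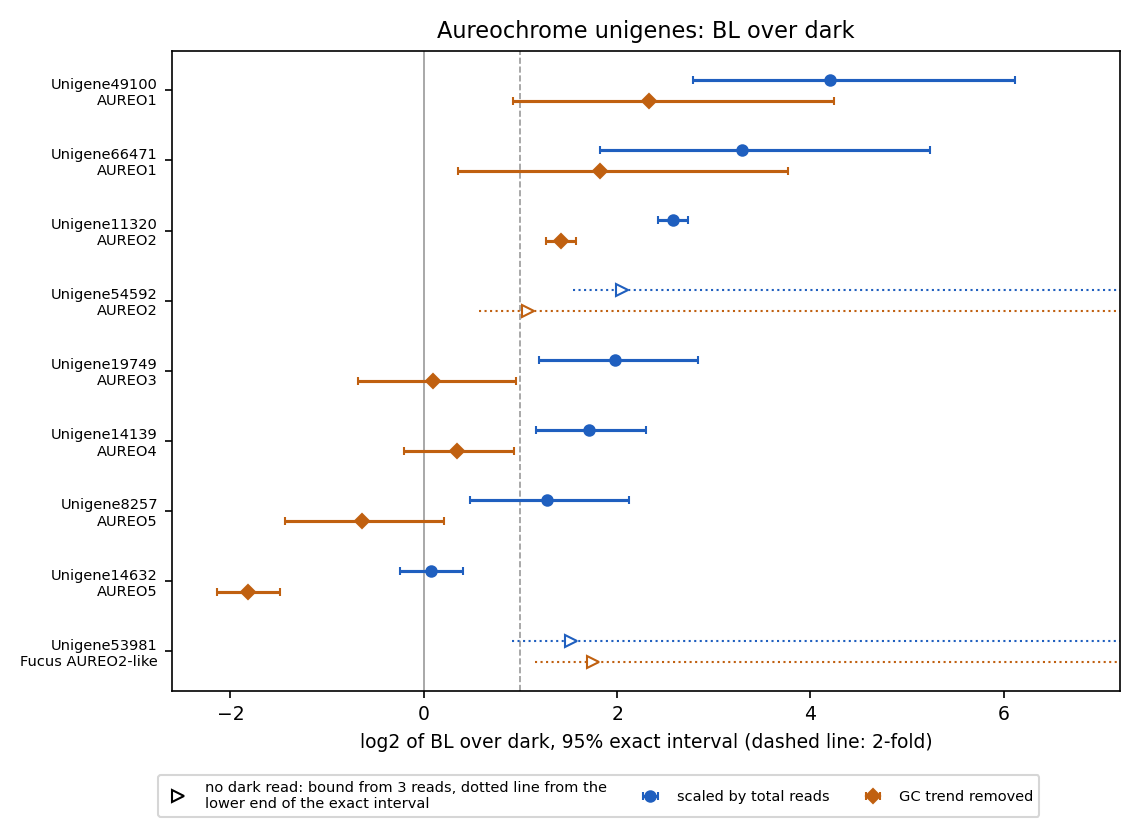
Log2 of BL over dark for each aureochrome unigene with exact Clopper-Pearson 95% intervals, scaled by total reads (circles) and after removal of the trend with GC content (diamonds); open triangles and dotted lines give bounds for the unigenes without a dark read. The point estimates with total reads run from 4.20 for Unigene49100 down to 0.08 for Unigene14632, and the trend removal moves all but Unigene53981 to the left.

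Because library size cancels when the ratio of 1 unigene is set against that of another, the members were compared with each other in all 36 pairs by the 2-sided Fisher's exact test on their BL and dark reads, with Benjamini-Hochberg adjustment over the pairs. In 15 pairs the ratios differed at an adjusted p of at most 0.05. Unigene14632 differed from all 8 other aureochrome unigenes. Its ratio was 0.0574 of that of Unigene49100 (interval 0.0150 to 0.159, adjusted p = 2.2e-13, Fisher's exact test) and 0.437 of that of Unigene8257, its partner under AUREO5 (interval 0.232 to 0.799, adjusted p = 0.0131, Fisher's exact test). The abundant AUREO2 match Unigene11320 had a 1.82-fold higher ratio than the AUREO4 match Unigene14139 (interval 1.19 to 2.72, adjusted p = 0.0131, Fisher's exact test) and a 2.47-fold higher ratio than Unigene8257 (interval 1.36 to 4.34, adjusted p = 0.00816, Fisher's exact test). The ratio of Unigene11320 was 0.324 of that of Unigene49100 (interval 0.0857 to 0.872, adjusted p = 0.0477, Fisher's exact test).

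Pairs with the same match were read separately. The ratios of the AUREO1 matches did not differ beyond counting error, with that of Unigene49100 1.88 times that of Unigene66471 in an interval of 0.330 to 10.6 (adjusted p = 0.585, Fisher's exact test). With 4 dark reads on each, a several-fold difference would have gone unseen. For the AUREO2 matches, the ratio of Unigene11320 over that of Unigene54592 had an upper limit of 2.06 (adjusted p = 0.355, Fisher's exact test), and only the AUREO5 matches differed among the 3 pairs with the same match. The AUREO3 match Unigene19749 and the AUREO4 match Unigene14139 did not differ in ratio (0.833 for Unigene14139 over Unigene19749, interval 0.406 to 1.66, adjusted p = 0.706, Fisher's exact test). Under Holm adjustment 8 of the 15 pairs still differed, 6 of them with Unigene14632, and the pair of AUREO5 matches did not (adjusted p = 0.115).

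The reads came from paired ends, and whether both reads of a pair were counted is not given in the sources used here. If every count is halved, an alternative chosen after the data had been seen, 5 aureochrome unigenes were upregulated, with Unigene54592 lost, while 14.4% of all unigenes were upregulated and 8.21% downregulated. Of the pairs, 5 differed. All 5 pairs held Unigene14632, set against Unigene11320, Unigene14139, Unigene19749, Unigene49100 and Unigene66471.

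**Figure D3:**
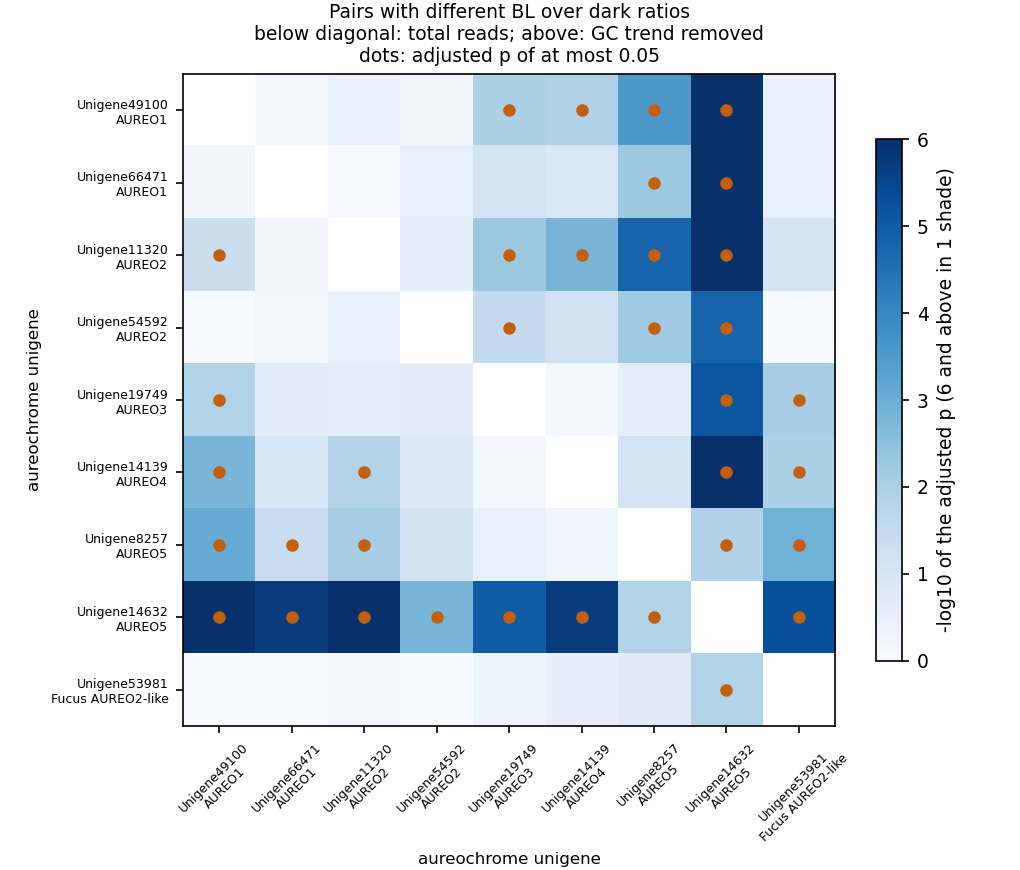
Adjusted p of the exact tests between all pairs of aureochrome unigenes as -log10 (darker is smaller p), with total reads below the diagonal and with the GC trend taken as the null value above it; dots mark an adjusted p of at most 0.05. Below the diagonal 15 pairs are marked and above it 20, and the row and column of Unigene14632 are marked throughout.

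Across the transcriptome, unigenes of higher GC content had higher ratios of BL over dark (Spearman 0.530 over the 34252 unigenes that had reads in both libraries and 50 or more together, which share their libraries and are not replicates). The study also reports a higher GC content of the clean reads in the BL library than in the dark library. How that difference relates to the trend was not tested. The aureochrome unigenes are GC-rich, so the ratios were set against the unigenes of the same class of GC content, 1 of 20 equal classes. Ranks are given for the 7 with reads in both libraries. Among these 7, the AUREO1 matches stood highest. Unigene49100 was above 94.6% of its class, whose median log2 ratio was 1.86. Unigene66471 was above 86.2% of a class with a median of 1.62. Unigene11320 stood above 76.5% of its class, with a median of 1.29. The AUREO3 and AUREO4 matches were near the middle, Unigene19749 above 52.9% and Unigene14139 above 58.8%. The AUREO5 matches were in the lower part, Unigene8257 above 31.1% and Unigene14632 above 9.37%. For the unigenes without a dark read only the 3-read bound can be placed. That of Unigene53981, 1.52, was above the upper quartile of its class, 0.60. That of Unigene54592, 2.05, was below the upper quartile of its class, 2.16.

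When this trend was removed before the test, 2 of the 9 aureochrome unigenes were upregulated and 1 was downregulated, while 17.3% of all unigenes were upregulated and 9.87% downregulated. Still upregulated were Unigene49100, with a log2 ratio of 2.33 (interval 0.92 to 4.24, FDR = 0.000388), and Unigene11320, with 1.42 (interval 1.26 to 1.57). Unigene14632, at -1.81 (interval -2.14 to -1.49), was downregulated. Unigene66471 kept a log2 ratio of 1.82 but had an FDR of 0.0189, Unigene14139 was at 0.34 and Unigene19749 at 0.10. Unigene8257 was at -0.64, which is a change of sign, but its interval of -1.44 to 0.21 includes no change (FDR = 0.140). Its GC content of 68.47% lies beyond the median of the uppermost class, where the trend was held level. Of the short unigenes without a dark read, Unigene54592 had a 3-read bound of 1.08 with an exact lower end of 0.57, and Unigene53981, the least GC-rich member, a bound of 1.75 with an exact lower end of 1.15. What part of the ratios goes with GC content and what part with the treatment cannot be told apart with 1 library per treatment. Among the members, 20 of the 36 pairs differed with the trend taken as the null value, 14 of them among the 15 above. The pair that no longer differed was that of Unigene11320 and Unigene49100 (adjusted p = 0.371, conditional exact test).

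**Figure D4:**
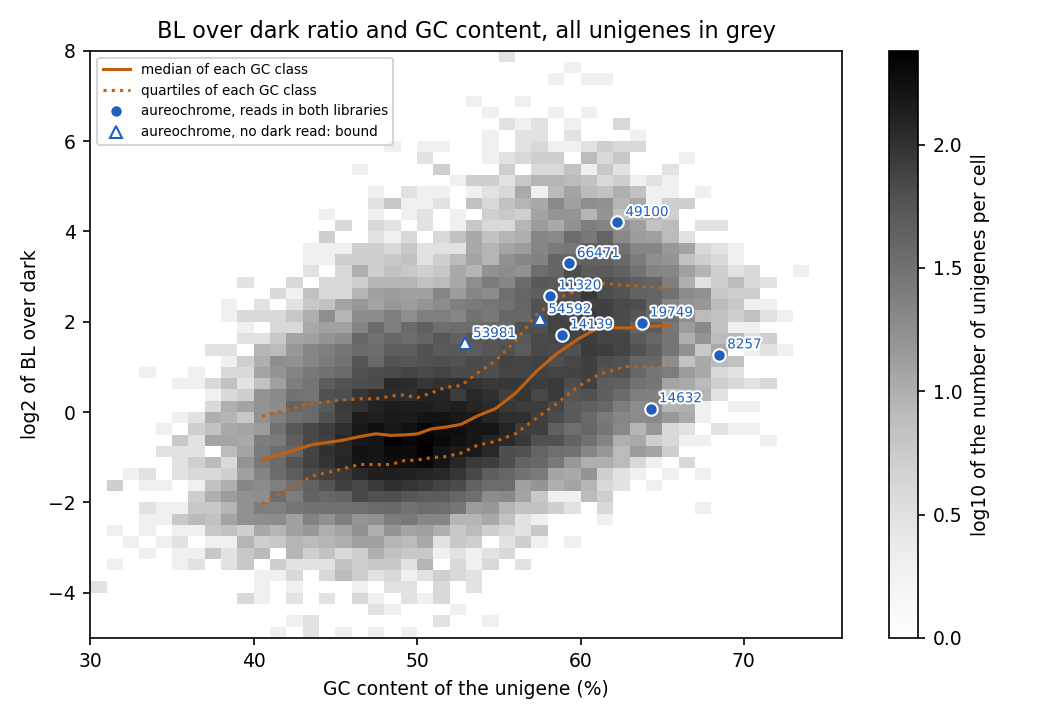
Log2 of BL over dark against GC content for 34252 unigenes (grey cells, darker for more unigenes), with the median and quartiles of 20 classes of GC content (lines) and the aureochrome unigenes by number (circles, or triangles for lower bounds). Unigene49100, Unigene66471, Unigene11320 and the bound of Unigene53981 lie above the upper quartile line and Unigene14632 below the lower one.

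How much pools of kelp vary under 1 treatment cannot be measured with 1 library per treatment. If the biological coefficient of variation is assumed to be 0.2, edgeR's exact test leaves 3 of the 9 upregulated, Unigene49100, Unigene66471 and Unigene11320, while 14.5% of all unigenes were upregulated and 3.74% downregulated. With 0.4, none of the 9 passed an FDR of 0.001, and the lowest FDR was 0.00563 for Unigene49100 in edgeR's exact test. The share of all unigenes with 0.4 was 1.19% upregulated and 0.185% downregulated.

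The same list of photoreceptors holds 26 phototropin unigenes, membrane-bound BL-activated kinases in land plants, 7 cryptochrome unigenes, flavoproteins related to the DNA repair enzyme photolyase, and 1 homologue of a bacterial BL receptor. Upregulated were 16 of the 26 phototropin unigenes, 4 of the 7 cryptochrome unigenes and the bacterial homologue, and none was downregulated, beside 25.0% of all unigenes upregulated and 11.6% downregulated. The median log2 ratio, with unigenes at 0 set to their limits, was 1.98 for aureochrome, 1.85 for phototropin and 1.85 for cryptochrome unigenes. Aureochrome unigenes held 19.8% of all photoreceptor reads in BL (exact interval 19.2% to 20.4%) and 7.93% in darkness (interval 7.34% to 8.54%). Phototropin unigenes held 70.3% in BL and 85.1% in darkness, and cryptochrome unigenes 8.79% in BL and 7.01% in darkness. These shares rest on the study's annotation of putative receptors. The study counted only part of its list as homologous to known BL photoreceptor genes of plants or other algae. The most-read phototropin unigene, Unigene16063, had 5121 BL reads and 4725 dark reads, and whether it encodes a phototropin was not tested. The shares hang on the most-read unigene of each list. The summed reads were 4.59-fold higher in BL for aureochrome, 1.52-fold for phototropin and 2.30-fold for cryptochrome unigenes, but without the most-read unigene of each list they were 2.25-fold higher for aureochrome, 2.67-fold for phototropin and 2.67-fold for cryptochrome unigenes. After removal of the GC trend, 7 phototropin unigenes were upregulated and 3 downregulated, and of the cryptochrome unigenes 0 were upregulated and 2 downregulated, beside 17.3% of all unigenes upregulated and 9.87% downregulated.

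**Figure D5:**
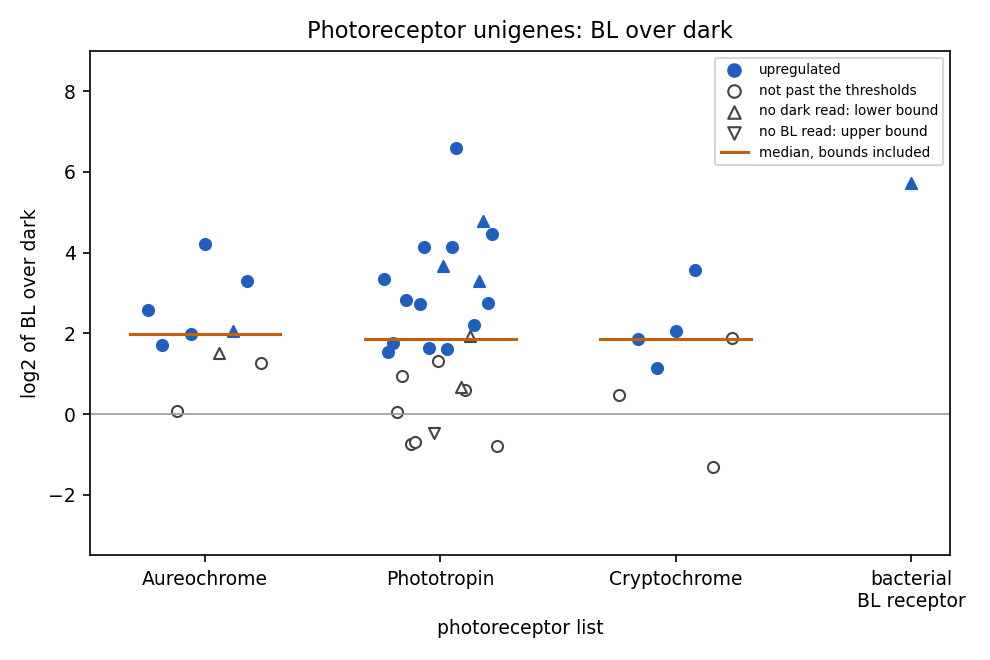
Log2 of BL over dark for every unigene of the photoreceptor list by category (filled symbols: upregulated; open symbols: not past the thresholds; triangles: bounds where a library had 0 reads), with the median of each category of more than 1 unigene as a line. The medians of aureochrome, phototropin and cryptochrome unigenes, 1.98, 1.85 and 1.85, lie close together, and the 9 aureochrome unigenes lie within the range of the phototropin unigenes.

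The study also lists 5 of the aureochrome unigenes, Unigene11320, Unigene14139, Unigene14632, Unigene19749 and Unigene49100, as matches of the LOV-type clock proteins ZTL, FKF1 and LKP2. They held 2890 BL reads and 602 dark reads, a 4.59-fold difference (interval 4.20 to 5.02). The 4 listed as aureochromes alone held 111 BL reads and 23 dark reads, a 4.61-fold difference (interval 2.92 to 7.58). Such double listing is not particular to aureochromes. The study lists some phototropin unigenes and the bacterial homologue under ZTL and FKF1 as well. Among 66 other photoreceptor and BL response unigenes of the study with at least 50 reads and reads in both libraries, the nearest to Unigene11320 by the Euclidean distance of log2 RPKM over the 2 libraries were Unigene26912 and Unigene21586. The polyketide synthase homologue Unigene26912 had 104 RPKM in BL and 23.7 RPKM in darkness, at a distance of 0.31. The S-phase kinase-associated protein homologue Unigene21586, a subunit type of SCF ubiquitin ligases, had 99.4 RPKM in BL and 16.9 RPKM in darkness, at a distance of 0.41.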

How the data were processed

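Per the file headers, the deposited counts give uniquely aligned reads per unigene as whole numbers, without normalization. The deposited percent values give the covered share of each unigene's length and its GC and unknown bases. The authors assembled clean reads with SOAPdenovo and TGICL and aligned the reads back. The aligner is not given in the sources used here. Unigenes absent from a library's list were set to 0.

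Totals were 11410538 reads (BL) and 10905306 (dark). With 0 reads, 3 reads were taken as the upper limit. RPKM used total unique reads. For sorting alone, 0.001 RPKM replaced 0. Both tails of the 2-sided Audic-Claverie test included the observed count, and the script was tested on simulated data. The study's length minimum of 500 bp was an alternative. The GC trend was the line through median log2 ratios of 20 classes. All 9 members are named, with the 2 unigenes nearest to the most-read member. Members, lists and tests were chosen with earlier results of these data known. Tools were Python 3.11.15, scipy 1.17.1, edgeR 4.0.16 and DESeq2 1.42.0 (size factors). Unigene sequences were not used here.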

Additional observations from a re-analysis of the deposited data

How the results depend on the processing

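No paired analysis was possible because each treatment has 1 library. Of the 9 aureochrome unigenes, 6 were upregulated; this was 3 and 0 with assumed coefficients of variation of 0.2 and 0.4, and 2, with 1 downregulated, after GC trend removal. It was 4 at 500 bp or more, where 4 of the 9 were left out and 7810 of all unigenes of that length were upregulated. It was also 4 at an absolute log2 ratio of 2, where 13149 of all 70288 unigenes were upregulated. The sign of the log2 ratio of Unigene14632 changed with TMM factors (-0.21), median-of-ratios size factors (-0.34) and GC trend removal (-1.81). Of these settings, only GC trend removal took Unigene14632 past the thresholds. The sign for Unigene8257 changed with GC trend removal as well (-0.64), where it was not past the thresholds. The log2 ratio of the summed reads was 2.20, and 1.91 with TMM factors, 1.78 with median-of-ratios size factors and 1.17 without Unigene11320. With the GC trend removed and the members weighted by their reads, it was 0.92. The 15 differing pairs became 8 with Holm adjustment and 5 with halved reads. Across all unigenes, 17561 were upregulated and 8135 downregulated. Upregulated ones were 10138 with halved reads, and 10182 and 839 with coefficients of variation of 0.2 and 0.4. Downregulated ones were 13295 with median-of-ratios size factors, 3876 at 500 bp or more, 3086 at an absolute log2 ratio of 2, and 2631 and 130 with coefficients of variation of 0.2 and 0.4. Across all unigenes, the excess of upregulated over downregulated ones was smaller with TMM factors and reversed with median-of-ratios size factors. The cause of these changes was not tested. Depth limits Unigene49100, Unigene66471, Unigene54592 and Unigene53981 most, with 0 to 4 dark reads each.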

Other observations

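Across the 7 aureochrome unigenes with reads in both libraries, the log2 ratio of BL over dark was lower at higher GC content (Spearman -0.536), whereas across 34252 unigenes of the transcriptome it was higher at higher GC content (Spearman 0.530). The unigenes share both libraries and are not replicates, and with so few of them the value is a description only. By best match, the log2 ratios of the summed reads were 3.82 for AUREO1 (interval 2.79 to 5.06), 2.58 for AUREO2 (2.43 to 2.74, Unigene54592 included), 1.98 for AUREO3 (1.20 to 2.83), 1.71 for AUREO4 (1.16 to 2.30) and 0.27 for AUREO5 (-0.03 to 0.57). The interval of AUREO3 overlapped those of AUREO1, AUREO2 and AUREO4, but such overlap is not a test of difference. In the pairs, the ratio of the AUREO3 match Unigene19749 was 0.214 of that of Unigene49100 (interval 0.0504 to 0.704). Against Unigene66471 it was 0.402 (interval 0.0926 to 1.36), which includes equality. The intervals against Unigene11320 and Unigene14139 include equality as well, so with total reads the place of AUREO3 beside AUREO2 and AUREO4 is not resolved. With the GC trend removed, Unigene19749 (0.10) and the AUREO4 match Unigene14139 (0.34) did not differ (adjusted p = 0.670, conditional exact test). In that setting Unigene19749 was below the AUREO2 match Unigene11320 (1.42, adjusted p = 0.00552, conditional exact test).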
